A study of Mus musculus with 4 samples.

Results

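The genes examined here were 10 genes of fat synthesis in the liver, from the transcription factors that switch the pathway on (Srebf1, Nr1h2) through fatty acid synthesis and desaturation (Acaca, Fasn, Scd1, Fads1) to triglyceride assembly and storage (Gpam, Dgat1, Dgat2, Plin2). They were taken from 2 deposited lists of N6-methyladenosine (m6A) peaks as every peak whose gene name was one of the 10. All 10 genes had a peak in at least 1 list, out of 9650 genes with a peak. The HKO list held 11 peaks on 7 of them, of 14693 peaks in all, and the FF list 9 peaks on 7 of them, of 14057.

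The HKO list came from livers of Alkbh5-HKO mice and the FF list from livers of Alkbh5flox/flox mice. Alkbh5 encodes an enzyme that takes the m6A methyl group off RNA. Mice of both genotypes were 9 weeks old on normal chow, and RNA of 3 mice per genotype was pooled. The labels do not spell out HKO, and the Cre line and the deleted exons are not given in the sources used here. RNA fragments of about 100 nt were pulled down with an antibody against m6A (methylated RNA immunoprecipitation, MeRIP-seq), and a peak is a stretch of exon where the immunoprecipitated (IP) library held more reads than its own input. Each genotype had 1 IP and 1 input library, so no value below has a replicate or a test between genotypes. Fold enrichment (IP over input) and q per peak are the authors' values. They come from separate IP reactions, so a higher fold in a list is not a measured change in methylation, and they are not RNA levels.

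m6A is the most common internal modification of messenger RNA. It is placed by a methyltransferase complex, often near stop codons, and bound by reader proteins that alter splicing, translation or decay of the transcript. In hepatocytes, fat synthesis is driven by insulin through SREBP-1, the product of Srebf1, and by the liver X receptors, which raise Srebf1 transcription. Acetyl-CoA carboxylase and fatty acid synthase build palmitate, desaturases add double bonds, and acyltransferases join fatty acids to glycerol to form triglyceride, which is stored in perilipin-coated droplets or secreted.

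Sequence was used for start sites only, from RefSeq windows on GRCm38.p6 that run from 250 bases before to 50 bases after an annotated start. Windows were listed for 6 of the 10 genes, 9 windows in all. No peak of the HKO list or the FF list reached the transcribed 50 bases of any of them. Scd1, Fads1, Dgat1 and Dgat2 had no window listed, and the member peaks centred within 500 bases of a gene start were on Scd1 and Dgat1. Over all 32851 windows, 2.4% were reached by an HKO peak and 4.98% by an FF peak. Below are the windows of Fasn, whose start site lay closest to a peak among those 6 genes, and the most downstream of 3 windows of Srebf1. They are set beside Fads2, which encodes a desaturase acting in the same pathway as that of Fads1, and Cideb, which encodes a lipid droplet protein, where peaks of both lists begin on the annotated first base. Capitals mark the transcribed bases.
Fasn, chr11:120824498-120824797, minus strand: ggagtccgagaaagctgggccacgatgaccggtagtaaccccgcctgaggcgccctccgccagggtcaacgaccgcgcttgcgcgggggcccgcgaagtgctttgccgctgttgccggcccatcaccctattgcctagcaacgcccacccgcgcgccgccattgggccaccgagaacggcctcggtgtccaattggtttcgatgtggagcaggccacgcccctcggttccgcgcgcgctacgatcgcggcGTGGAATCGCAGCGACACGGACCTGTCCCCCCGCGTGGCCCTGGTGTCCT
Srebf1, chr11:60210422-60210721, minus strand: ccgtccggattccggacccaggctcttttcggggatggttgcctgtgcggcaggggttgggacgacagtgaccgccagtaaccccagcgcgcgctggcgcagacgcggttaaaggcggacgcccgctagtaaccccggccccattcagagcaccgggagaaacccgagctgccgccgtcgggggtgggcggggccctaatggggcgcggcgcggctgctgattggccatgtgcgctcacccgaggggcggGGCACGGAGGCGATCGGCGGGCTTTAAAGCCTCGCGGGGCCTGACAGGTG
Fads2, chr19:10101454-10101753, minus strand: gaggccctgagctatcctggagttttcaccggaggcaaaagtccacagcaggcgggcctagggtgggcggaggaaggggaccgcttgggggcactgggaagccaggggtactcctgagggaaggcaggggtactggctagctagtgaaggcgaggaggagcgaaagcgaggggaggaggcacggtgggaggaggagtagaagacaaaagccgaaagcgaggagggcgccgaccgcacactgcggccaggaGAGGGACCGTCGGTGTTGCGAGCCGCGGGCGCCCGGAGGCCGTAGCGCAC
Cideb, chr14:55758375-55758674, minus strand: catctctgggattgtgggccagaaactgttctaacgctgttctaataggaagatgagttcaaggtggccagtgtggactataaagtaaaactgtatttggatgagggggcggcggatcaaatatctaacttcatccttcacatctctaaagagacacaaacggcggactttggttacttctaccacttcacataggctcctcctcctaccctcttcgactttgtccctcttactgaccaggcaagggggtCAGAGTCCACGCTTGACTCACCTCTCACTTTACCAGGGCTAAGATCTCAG

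The m6A consensus DRACH (any base but C, a purine, A, C, any base but G) was searched on the transcribed strand of the 50 bases. It occurred once in each of these 4 windows, as GGACC from base 19 in Fasn, TGACA from base 42 in Srebf1, GGACC from base 4 in Fads2 and TGACT from base 14 in Cideb. It was present in 7 of the 9 windows of the 10 genes and in 54.4% of all windows. Among the 4 printed windows it stood both in the pair reached by peaks and in the pair that was not. These 4 were chosen for display, so they cannot show whether the motif goes with peaks at start sites. The core GGAC of DRACH was in 2 of the 9 windows and in 18.9% of all. In the whole window and on both strands, CCAAT, the box bound by NF-Y, was found 3 times in Fasn, with 2 of these in the palindrome ccaattgg, and 1 time in Srebf1, and 37.4% of all windows hold it. GGGCGG, a GC box, was found 2 times in Srebf1 and 0 times in Fasn, and 35.7% of all windows hold it. The Fads2 peaks on this start had a fold of 3.61 in the HKO list and 4.92 in the FF list, and the Cideb peaks a fold of 23.7 in the HKO list and 3.48 in the FF list.

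The lists as a whole set the scale. Median fold was 10.4 over HKO peaks and 8.8 over FF peaks. Alkbh5 had 0 peaks in the HKO list and 3 in the FF list; peak lists give no RNA level. Of 10 hepatocyte markers, the HKO list held peaks on 9 and the FF list on 7 (Alb lacked one in HKO, and Ttr, Cps1 and Cyp2e1 in FF), while none of 4 adipocyte markers had a peak in either list. Markers of other liver cells had peaks too, with 2 of 5 Kupffer cell markers in the HKO list and 3 of 5 in the FF list, 3 of 4 endothelial markers in each, 3 of 4 stellate cell markers in the HKO list and 1 of 4 in the FF list, and 1 of 4 cholangiocyte markers in the HKO list and 0 of 4 in the FF list. Their part in the results was not tested, and the peak lists carry no cell type.

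Of the 10 genes, Srebf1, Nr1h2 and Fads1 had HKO peaks only, Dgat1, Gpam and Plin2 had FF peaks only, and Acaca, Fasn, Scd1 and Dgat2 had peaks in both. Among all 9650 genes, 13.2% had HKO peaks only, 11.2% had FF peaks only and 75.6% had both. The 10 genes were picked with this split known, so the counts of 3, 3 and 4 describe the choice and carry no weight beside those shares. Of the peaks, 6 of 11 in the HKO list and 6 of 9 in the FF list overlapped a peak of the other list by at least 1 exonic base, against 71.5% of all HKO peaks and 74.8% of all FF peaks. Given that choice of genes, the peaks of Srebf1, Nr1h2, Fads1, Dgat1, Gpam and Plin2 could not overlap one of the other list. The peak counts therefore also describe the choice and carry no weight beside these shares.

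**Figure D1:**
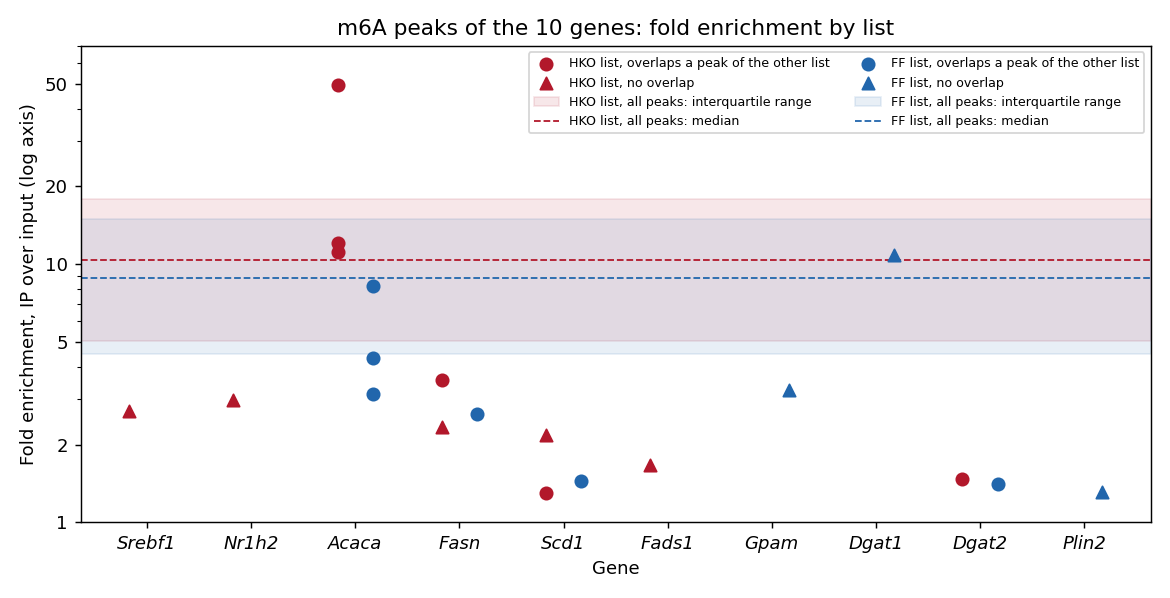
Fold enrichment (IP over input, log axis) of every peak on the 10 genes, HKO list (red) left of FF list (blue) for each gene, circles for peaks that overlap a peak of the other list and triangles for those that do not. Dashed lines and bands give the median and interquartile range of all peaks of each list; only the 3 HKO peaks of Acaca and the FF peak of Dgat1 lie above their list's median.

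Both transcription factors among the 10 genes had their peak in HKO alone, and they were picked with this known. In a wider pathway list given below, 9 of 11 other genes of transcriptional control had a peak. Of these, 8 had peaks in both lists and 1 in HKO alone. Srebf1 encodes the precursor of SREBP-1, the transcription factor that turns on most genes of fatty acid synthesis. Its 1 HKO peak, at chr11:60207230-60209187 on the minus strand, had a fold of 2.69 (log10 q -3.54), and the FF list had 0. The peak was made of 62 exonic bases and 28 exonic bases on either side of a gap of 1868 bases, 90 exonic bases in all. Its near edge lay 1284 bases downstream of the most downstream of the 3 annotated start sites shown above, so all 3 starts lie upstream of it. By q it was a weak peak, since 23.1% of HKO peaks had a larger q, and at a q of 1e-05 or less it was not counted.

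Nr1h2 encodes LXR-beta, a liver X receptor that binds oxysterols and is made in many tissues. Its 1 HKO peak, at chr7:44549646-44549883 on the minus strand, had a fold of 2.98 (log10 q -7.3) over 238 bases, and the FF list had 0. It was centred 148 bases from the annotated gene end. Nr1h3, which encodes the liver-enriched LXR-alpha, had 1 HKO peak and 2 FF peaks, with folds of 10.8 in HKO and 9.63 in FF for the overlapping pair.

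Acaca had the highest fold of the 10 genes in the HKO list, where its other peaks had the smallest q, while in the FF list its folds lay below that of Dgat1. It encodes acetyl-CoA carboxylase 1, which makes malonyl-CoA, the committed step of fatty acid synthesis. Peaks lay at the same 3 places in both lists, all on the plus strand of chromosome 11 within the last 1886 bases of a gene span of 272017 bases. The first ran over chr11:84399765-84400363 in the HKO list, with a fold of 49.2 (log10 q -75.2), and over chr11:84399765-84400244 in the FF list, with a fold of 8.22 (log10 q -39.2.) The second had the same limits in both lists, chr11:84400932-84401202, and a fold of 12.1 in HKO and 4.34 in FF. The last, chr11:84401382-84401651, also with the same limits, had a fold of 11.1 in HKO and 3.13 in FF and ended on the last base of the annotated gene. The fold of the first peak was higher than that of 95.5% of HKO peaks in the HKO list and of 46.7% of FF peaks in the FF list. These 3 peaks sit on 1 transcript and are not independent of each other.

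Fasn encodes fatty acid synthase, the multi-enzyme protein that builds palmitate from malonyl-CoA. Its peak towards the gene end ran over chr11:120807067-120807247 in the HKO list, with a fold of 3.57 (log10 q -97.7), against chr11:120807067-120807277 in the FF list, with a fold of 2.63 (log10 q -29.9), on the minus strand. The HKO peak lay wholly within the FF peak, covered 85.8% of it, and was centred 1199 bases from the gene end. A further HKO peak, chr11:120822817-120824084, overlapped no FF peak. It joined 55 and 36 exonic bases across a gap of 1177 bases, began 463 bases downstream of the Fasn start site printed above, and had a fold of 2.33 (log10 q -2.03.) Only 3.54% of HKO peaks had a larger q than this peak.

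Scd1 and Fads1, the desaturase genes among the 10, had folds between 1.3 and 2.17. Scd1 encodes stearoyl-CoA desaturase 1, which makes oleate and palmitoleate, and belongs to a family of close copies on the same chromosome. Reads may be shared among these copies, which was not tested, so the Scd1 peaks are read with caution. Near the gene start, the HKO peak at chr19:44407440-44407530 had a fold of 1.3 (log10 q -2.15), and the FF peak at chr19:44407500-44407619 a fold of 1.44 (log10 q -4.34.) These overlapped by 31 bases, which is 34.1% of the HKO peak and 25.8% of the FF peak, so that they were no longer a shared pair once an overlap of 50% was asked for. An HKO peak at chr19:44398002-44400145 overlapped no FF peak and had a fold of 2.17 (log10 q -19.2.) It held 117 bases on one side of a gap of 2023 bases and 4 on the other. Scd2, the copy best known from brain, had no peak in either list.

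Fads1 encodes the delta-5 desaturase of polyunsaturated fatty acids. Its 1 HKO peak, at chr19:10194879-10195028 on the plus strand, had a fold of 1.66 (log10 q -7.76), and the FF list had 0. It was centred 1921 bases from the gene end. Only 0.837% of HKO peaks had a lower fold, while 47.3% had a larger q.

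Triglyceride assembly begins with Gpam, which encodes the mitochondrial glycerol-3-phosphate acyltransferase. The HKO list had 0 peaks on it and the FF list 1, at chr19:55070994-55072749 on the minus strand, with a fold of 3.26 (log10 q -3.46.) This peak spanned a gap of 1665 bases with 38 and 53 exonic bases. It did not reach a q of 1e-05, and 24.7% of FF peaks had a larger q.

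The last step of triglyceride synthesis is catalysed by 2 unrelated acyltransferases, and their genes differed in where the peak lay. Dgat1 had 0 HKO peaks and 1 FF peak, at chr15:76511574-76511872 on the minus strand, with a fold of 10.8 (log10 q -19.6.) That peak was centred 298 bases from the gene start, and its fold was higher than that of 58.4% of FF peaks. Dgat2 had its peak at the other end, 918 bases from the gene end in the HKO list and 903 in the FF list. The HKO peak, chr7:99154492-99154670, had a fold of 1.47 (log10 q -18.2), and the FF peak, chr7:99154522-99154610, a fold of 1.41 (log10 q -13.0.) The FF peak lay wholly within the HKO peak and covered 49.7% of it.

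Plin2 encodes perilipin 2, the main coat protein of lipid droplets in hepatocytes. It had 0 HKO peaks and 1 FF peak, at chr4:86662048-86662197 on the minus strand, with a fold of 1.31 (log10 q -10.8.) Only 0.121% of FF peaks had a lower fold, while 57.4% had a larger q. Its centre lay 7937 bases downstream of the annotated start site in the RefSeq window table and 35212 bases from the end of a gene span that takes in predicted transcripts.

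**Figure D2:**
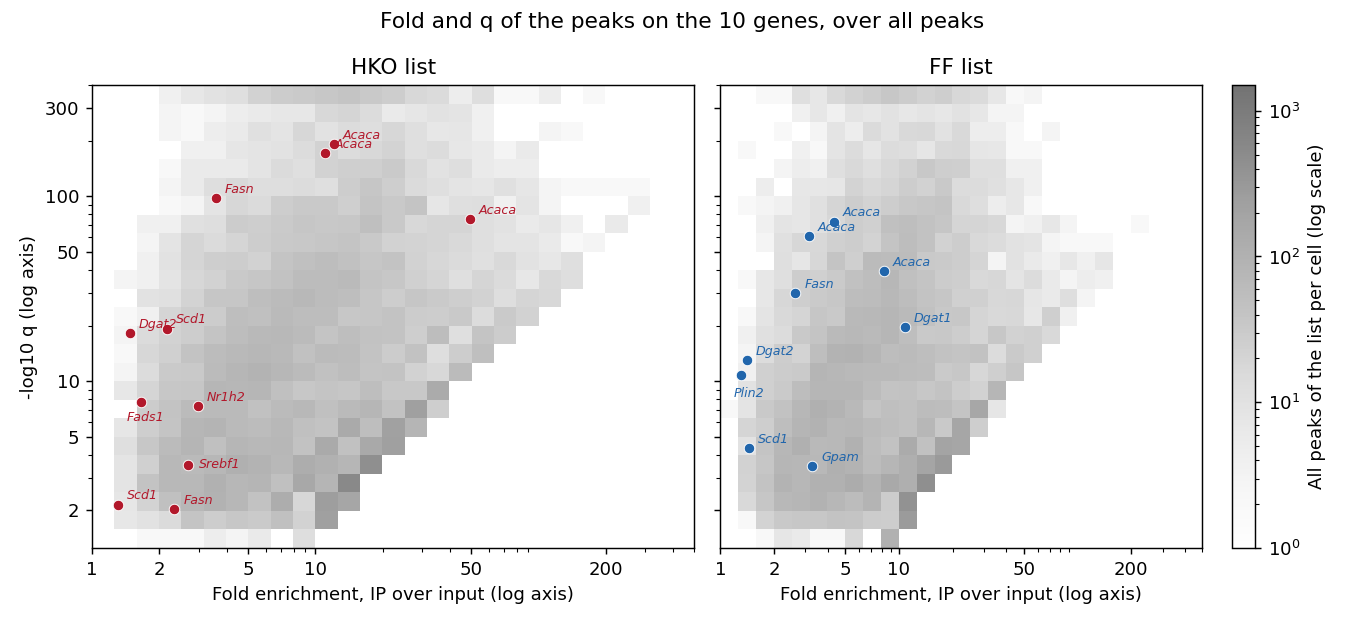
Fold enrichment (log axis) against -log10 q (log axis) for the peaks on the 10 genes, HKO list at left and FF list at right, over all peaks of the list as grey cells, with peaks listed at a q of 0 drawn in the top row. Apart from the HKO peaks of Acaca and the FF peak of Dgat1, the labelled peaks lie to the left of the median fold of their list. Dgat2 and Plin2 pair folds under 2 with -log10 q above 10.

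As a group, these peaks had low folds, while their q was mixed. Median fold was 2.69 over the 11 HKO peaks and 3.13 over the 9 FF peaks, against 10.4 over all HKO peaks and 8.8 over all FF peaks. A fold under 2 was found for 3 of 11 HKO peaks (Dgat2, Fads1 and the start peak of Scd1) and for 3 of 9 FF peaks (Dgat2, Plin2 and Scd1), against 2.5% of all HKO peaks and 3.55% of all FF peaks. Median log10 q was -18.2 over the HKO peaks and -19.6 over the FF peaks, against -8.7 over all HKO peaks and -7.79 over all FF peaks. Acaca gave 3 peaks on 1 transcript to each of these medians. In HKO, Srebf1, Nr1h2, Fads1, the start peak of Scd1 and the unshared Fasn peak had a larger q than the list median. In FF, Gpam and Scd1 did. A q of 1e-05 or less was reached by 8 of 11 HKO peaks, against 65.5% of all HKO peaks. In the FF list 7 of 9 peaks reached it, against 62.3% of all FF peaks. With so few peaks, these counts lie near the shares of the lists. The peaks were somewhat short, with a median of 179 exonic bases in the HKO list and 211 in the FF list, against 269 over all HKO peaks and 241 over all FF peaks. More than 1 exon block was present in 3 of 11 HKO peaks (Srebf1, Fasn and Scd1) and 1 of 9 FF peaks (Gpam), against 13.9% of all HKO peaks and 17.4% of all FF peaks. Read depth at these transcripts is not in the files, so its part in the q of these peaks was not tested.

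**Figure D3:**
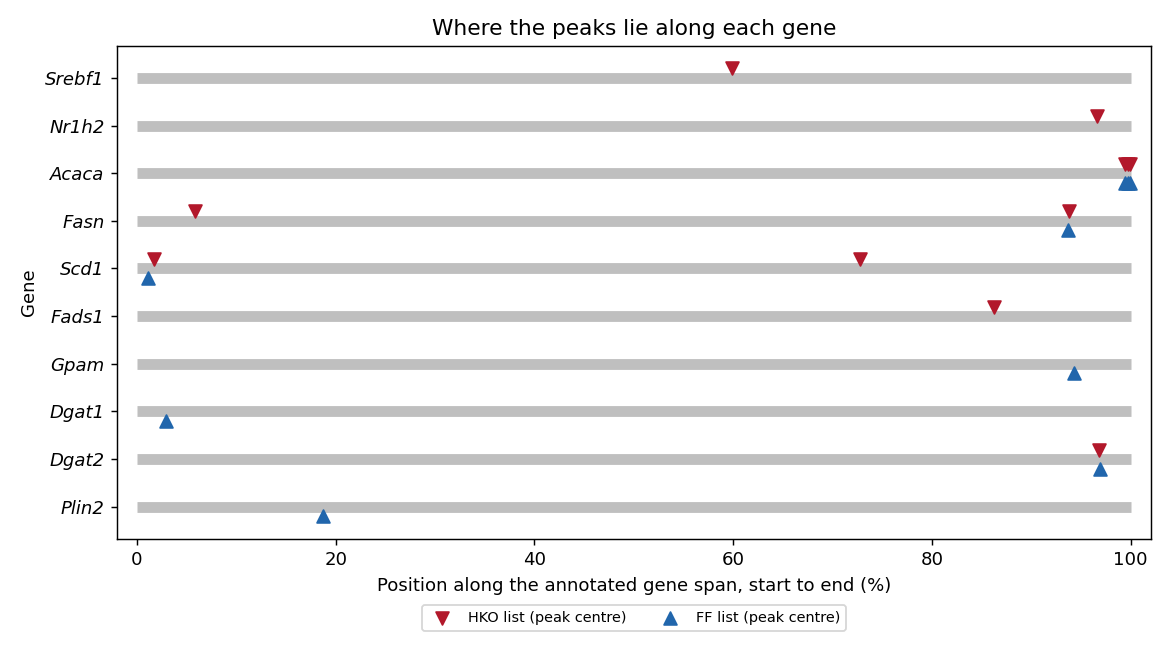
Centre of every peak along the annotated gene span, from start (0%) to end (100%), HKO list (red) above FF list (blue) on each gene. The 3 Acaca peaks of each list fall together at the right edge; Dgat1 and the paired Scd1 peaks lie within 3% of the start.

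Along the gene, 4 of 11 HKO peaks (2 of Acaca, Dgat2 and Nr1h2) and 3 of 9 FF peaks (2 of Acaca and Dgat2) were centred within 1000 bases of the gene end, against 31% of all HKO peaks and 26.6% of all FF peaks. Within 500 bases of the gene start were 1 HKO peak (Scd1, at 224 bases) and 2 FF peaks (Dgat1, at 298 bases, and Scd1, at 150), against 7.38% of all HKO peaks and 15% of all FF peaks. With so few peaks these counts lie near the shares of the lists. The peaks in a single list were spread over the gene: in the HKO list they ranged from 148 bases before the gene end (Nr1h2) to 1127 bases after the annotated gene start (Fasn), and in the FF list they lay near the start (Dgat1), 8095 bases in (Plin2) and 3404 bases before the end (Gpam). Measured from the Fasn start site printed above, the same Fasn peak was centred 508 bases downstream, just outside the window of 500 bases.

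**Figure D4:**
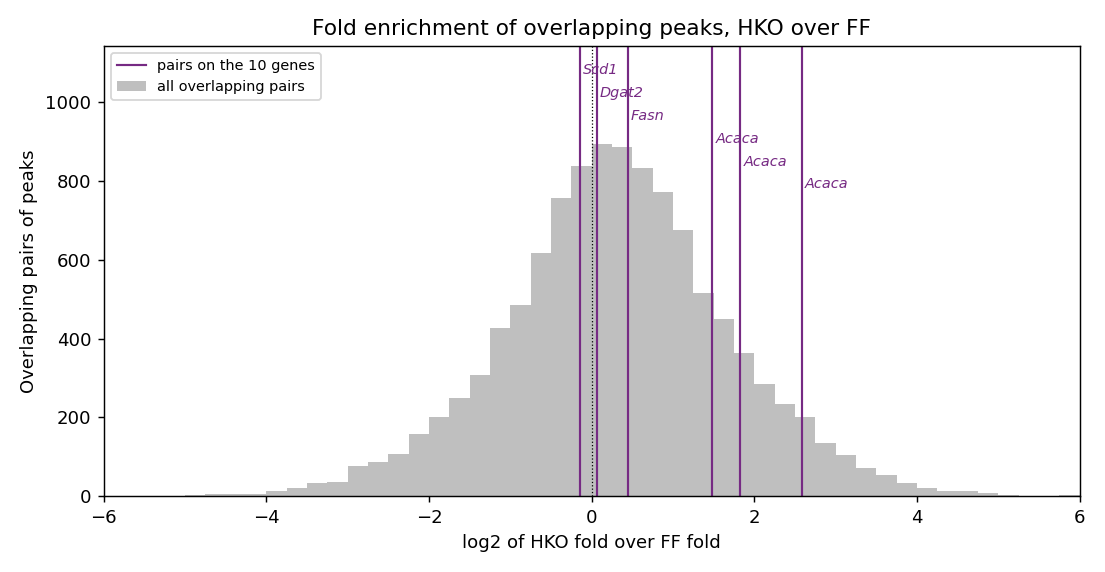
Histogram of the log2 ratio of HKO fold over FF fold for all overlapping pairs of peaks (grey), with the 6 pairs on the 10 genes as lines. The 3 Acaca pairs lie to the right of the interquartile range of all pairs, while Scd1, Dgat2 and Fasn lie inside it.

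Where both lists had an overlapping peak, the folds can be set beside those of all 11014 overlapping pairs. Over all pairs the ratio of HKO fold over FF fold had a median of 1.23 (interquartile range 0.694 to 2.24), and the HKO fold was the higher in 59.5% of them. On the 10 genes it was the higher in 5 of 6 pairs, but the Acaca pairs among these sit on the same transcript and are not independent. The Acaca pairs had ratios of 5.99, 2.79 and 3.55, above those of 94.7%, 81.6% and 87.0% of all pairs, and 28.9% of all pairs had a ratio over 2. The Fasn pair had a ratio of 1.36, the Dgat2 pair 1.04 and the Scd1 pair 0.903, all inside the interquartile range. Without a second pool of mice, none of these ratios can be set against biological spread.

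The rest of the pathway was read from a list of 69 genes that takes in the 10. Of these, 52 had a peak, 42 of them in both lists (80.8%, against 75.6% over all genes). A further 6 had peaks in HKO alone and 4 in FF alone. Without the 10 genes, 42 of 59 had a peak, 38 in both lists (90.5%), 3 in HKO alone and 1 in FF alone. The 10 genes were picked with their list split known, so the rise in this share on leaving them out describes that choice. Genes in HKO alone belonged to transcriptional control (Srebf1, Nr1h2, Scap), desaturation (Fads1, Fads3) and fatty acid activation (Acsl3), and those in FF alone to glycerolipid assembly (Gpam, Dgat1, Agpat4) and the droplet coat (Plin2). Scap, which escorts SREBP precursors out of the endoplasmic reticulum, had a fold of 2.86 (log10 q -17.8.) Fads3 had a fold of 9.76 (log10 q -8.87), and Acsl3, a long-chain acyl-CoA synthetase, 10.2 and -5.67. Agpat4, of the family that acylates lysophosphatidic acid, had a fold of 19.6 (log10 q -4.27.) Srebf1, Nr1h2, Fads1, Gpam, Dgat1 and Plin2 were picked with their list known, so their part of the split by role describes the choice. With them left out, Scap, Fads3 and Acsl3 stand in HKO alone and Agpat4 in FF alone. The split by role was seen after the genes were sorted and has no test.

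Genes with overlapping peaks were ranked by the lower of the HKO and FF folds of the pair, and the leading ones are given here. Plin4, a perilipin, had folds of 36.5 in HKO and 77.5 in FF, and Plin5, the perilipin of oxidative tissues, 24.2 in HKO and 19.6 in FF. Usf1, an E-box factor that acts at the Fasn promoter, had 33.4 in HKO and 26.7 in FF. Lpin3, a phosphatidate phosphatase, had 31.6 in HKO and 15.3 in FF. Fads6 had 10.2 in HKO and 22.5 in FF, and Hilpda, an inhibitor of adipose triglyceride lipase, 10.2 in HKO and 11.5 in FF. Peaks on the 59 other genes had a median fold of 5.52 in the HKO list and 4.7 in the FF list, and 7.59% of them in the HKO list and 19.8% in the FF list had a fold under 2. No peak was listed for 17 genes, among them Acly, Slc25a1 and Me1, which supply cytosolic acetyl-CoA or NADPH, Thrsp, Agpat1, Agpat5, Pnpla3 and Hsd17b13. Absence of a peak does not show absence of m6A, since few reads also give no peak.

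**Figure D5:**
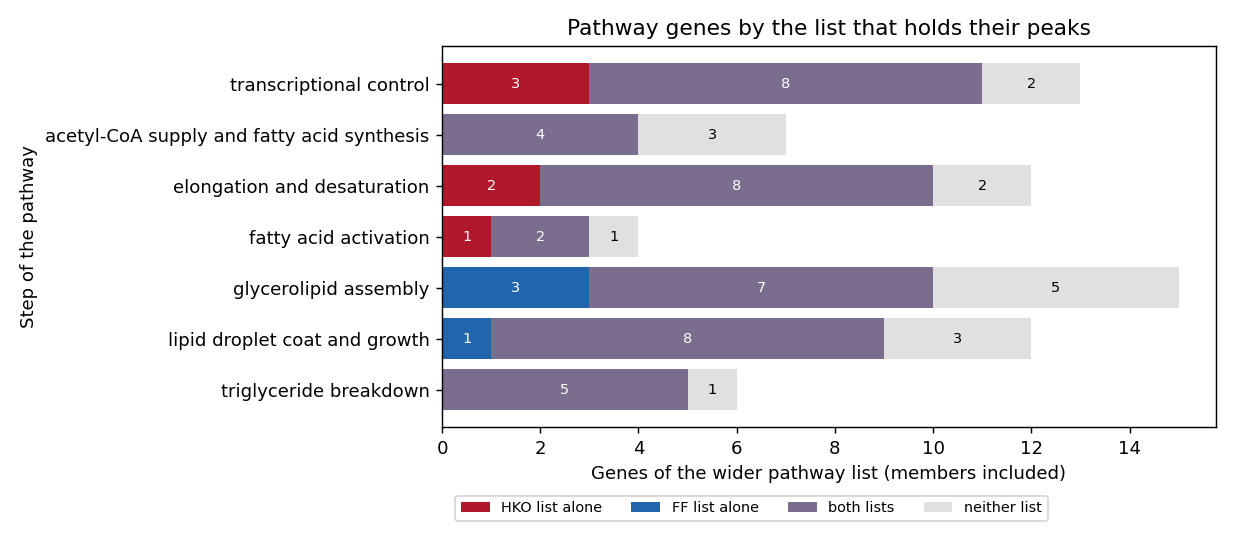
Number of genes of the 69-gene pathway list by step, split into HKO list alone, FF list alone, both lists and neither list. Red segments (6 genes) stand in transcriptional control, elongation and desaturation, and fatty acid activation, and blue segments (4 genes) in glycerolipid assembly and the lipid droplet. Srebf1, Nr1h2, Fads1, Gpam, Dgat1 and Plin2, counted in these segments, were picked with their list known.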

How the data were processed

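Peak lists of 1 HKO and 1 FF comparison, IP against input, were used. Per the series design text, peaks were called by the authors with exomePeak 2.16.0 at a q of 0.05; genome build GRCm38.p6, HOMER 4.9.1, BWA 0.7.12 and fastp 0.19.11 come from the submitters' processing notes. That text and the sample labels disagree on the antibody maker and library kit. The deposited fold of a peak is a ratio, IP over input, made by the authors. The deposited score column holds p-values, whose log10 was within 0.02 of the listed log10 p, and q is deposited as its log10, read here as a score with no lower bound. Depth is unknown, since the lists hold no read totals.

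Starts in the files count from 0 and were raised by 1. Peaks were shared if exon blocks overlapped by 1 base or more on 1 strand. Positions are of the exonic centre against RefSeq gene spans (GRCm38.p6), which also name no second gene at any of these peaks. Python 3.11.15, pandas 2.3.3, numpy 2.4.6 and matplotlib 3.10.9 were used, and the overlap code was tested on simulated peaks. All 10 members are named with each peak; of the wider list, genes in a single list and the 5 with the highest lower fold of a shared pair (6 with a tie) are named. The members, lists and settings were chosen with earlier results of these data known. DRACH counts inside peaks, which need a genome, and transcript regions were not analysed here. Alternatives for q, fold, list length, overlap, gene matching and windows are given in the closing section.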

Additional observations from a re-analysis of the deposited data

How the results depend on the processing

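Of 50 alternative values, 43 stayed within 1.5 times the main value. For fold, the main value here was a median over genes, from the peak of smallest q of each gene. It was 2.69 in the HKO list and 2.63 in the FF list, and differs from the median over peaks given above. At a q of 1e-05 or less, 2 of the 10 genes had no peak left (Srebf1 and Gpam) and Scd1 passed to the HKO list alone. At a fold of 2 or more, 2 genes were in both lists (Fasn and Acaca), 3 had no peak left (Fads1, Dgat2 and Plin2) and Scd1 again stood in the HKO list alone. Cutting both lists to the length of the shorter, matching synonyms and taking any peak in the gene span left the split at 3 HKO, 3 FF and 4 both. Shared peaks numbered 4 to 6 in each list over the rules of overlap, q and fold. With a start window of 200 bases, 0 HKO and 1 FF peaks were at the start, and with an end window of 500 bases, 2 HKO and 1 FF peaks were at the end. The GGAC search and start sites from the window table were added once the data had been examined. Those start sites could not move the start peaks of Scd1 and Dgat1, which have no window. No paired analysis was possible because each genotype had 1 pool. Searches of the consensus within peaks were not run, for want of a genome. Unknown depth limits every absence from a list.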

Other observations

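Start sites of the wider pathway list were set against the peaks of both lists. Of 86 RefSeq windows on 59 of the 69 genes, the transcribed 50 bases were reached by an HKO peak in 6 and by an FF peak in 12, against 2.4% of all windows for HKO peaks and 4.98% for FF peaks, so the larger FF count is one that the windows of all genes show too. Both counts are larger shares of the 86 windows than the shares over all windows. All windows cover 27025 genes, while 9650 genes had a peak, so many windows belong to genes without any peak. Several windows belong to 1 gene, so these counts are of start sites and not of genes. Windows of Nr1h3, Cideb, Fads2 and Acsl5 were reached in both lists. The one window of Lpin2, a phosphatidate phosphatase, reached by a peak was reached in the HKO list only (fold 18.7, log10 q -3.97). Windows reached in the FF list only belonged to G0s2, an inhibitor of adipose triglyceride lipase (fold 11, log10 q -6.26), Acss2, a cytosolic acetyl-CoA synthetase (2.63, -5.85), Mlxipl, which encodes the carbohydrate-sensing factor ChREBP (5.87, -3.35), Rxra, the partner of the liver X receptors (21.1, -23.5), Mgll, monoacylglycerol lipase (15.7, -3.17), and Elovl1, a fatty acid elongase, at 2 windows (5.64, -4.2 and 8.62, -5.13). These windows were looked at after the lists were seen, and no difference between the lists was tested.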
